A study of Mus musculus with 12 samples.

Results

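The CXC chemokines are small secreted or membrane-held proteins that direct the movement of leukocytes. The 9 genes described here, Cxcl1, Cxcl2, Cxcl9, Cxcl10, Cxcl12, Cxcl13, Cxcl14, Cxcl16 and Pf4, were chosen by name from the 46517 genes of the count table, and all 9 had enough counts to be tested. They were measured by bulk RNA sequencing of macrophages sorted by flow cytometry from wild type adult C57/BL6 mice. The 4 groups were LYVE1+ and LYVE1- macrophages of the aorta, from 30 mice, and LYVE1+ and LYVE1- macrophages of epididymal and subcutaneous fat, from 20 mice, with n = 3 libraries in each group. All sorted cells were viable (DAPI-) leukocytes (CD45+) that carried the macrophage markers F4/80, MerTK, CD64 and CD11b, and LYVE1, a hyaluronan receptor of lymphatic endothelium and of some tissue macrophages, was the only sort marker that differed. Whether the 3 libraries of a group are separate pools is not given in the sources used here, so p-values measure the spread between these libraries, which may be technical.

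Chemokines of this family bind G protein-coupled receptors named CXCR and are held on heparan sulfate near the cells that release them. Members with a glutamate-leucine-arginine motif, such as CXCL1 and CXCL2, attract neutrophils through CXCR2, whereas CXCL9 and CXCL10 are induced by interferons and attract activated T and NK cells through CXCR3. CXCL12, CXCL13 and CXCL14 are made largely without inflammation, CXCL16 is anchored in the membrane and also binds oxidised lipoprotein, and PF4 (CXCL4) is best known from platelet granules. Macrophages are a source of several of them, and in the artery wall they are studied for the recruitment of leukocytes to atherosclerotic plaques.

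The promoter sequences of Cxcl1, Cxcl2, Cxcl9 and Cxcl10 are shown because these genes are the inducible members, and Cxcl1 and Cxcl2 had closely matching levels over the libraries. Each is the 250 bases before the RefSeq start of the gene in the build GRCm38.p6, read 5′ to 3′ on the strand of the gene. Capitals mark matches, on either strand, to the kappaB site bound by NF-kB or to the core of the interferon-stimulated response element, GAAANNGAA. The windows are chr5:90890995-90891244 (plus strand), chr5:90903649-90903898 (plus strand), chr5:92328080-92328329 (minus strand) and chr5:92348890-92349139 (minus strand).
Cxcl1: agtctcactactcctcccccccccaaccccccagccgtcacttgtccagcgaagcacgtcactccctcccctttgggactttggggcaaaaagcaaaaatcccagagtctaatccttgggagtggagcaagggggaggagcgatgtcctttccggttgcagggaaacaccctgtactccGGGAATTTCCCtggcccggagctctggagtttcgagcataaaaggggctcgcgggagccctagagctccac
Cxcl2: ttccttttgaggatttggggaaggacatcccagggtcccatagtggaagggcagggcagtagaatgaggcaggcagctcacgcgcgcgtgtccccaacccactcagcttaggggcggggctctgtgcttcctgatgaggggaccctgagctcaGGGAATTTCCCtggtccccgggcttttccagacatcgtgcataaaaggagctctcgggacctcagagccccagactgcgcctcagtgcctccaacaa
Cxcl9: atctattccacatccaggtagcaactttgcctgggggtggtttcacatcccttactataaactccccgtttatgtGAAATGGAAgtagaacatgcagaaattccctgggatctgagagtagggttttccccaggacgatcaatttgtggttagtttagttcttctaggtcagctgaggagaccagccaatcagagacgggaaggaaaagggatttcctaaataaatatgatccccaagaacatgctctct
Cxcl10: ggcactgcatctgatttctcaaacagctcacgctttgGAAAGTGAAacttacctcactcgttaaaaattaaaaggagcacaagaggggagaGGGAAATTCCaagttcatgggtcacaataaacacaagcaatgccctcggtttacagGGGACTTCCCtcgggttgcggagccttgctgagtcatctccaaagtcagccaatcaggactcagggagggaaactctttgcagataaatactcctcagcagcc

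RefSeq gave a promoter for 8 of the 9 genes. The Cxcl1 window held an 11-base kappaB block that begins 71 bases before the start, and the same 11 letters, GGGAATTTCCC, begin 97 bases before the start of Cxcl2; in each gene the block holds 2 overlapping matches. The Cxcl10 window held 2 separate kappaB matches, which begin 159 and 103 bases before the start, and 1 response element core, which begins 213 bases before it. The Cxcl9 window held 1 response element core and no kappaB match. Among 32851 promoter windows of 250 bases, 3.90% held a kappaB match and 7.13% a response element core. The interferon gamma site GAS (TTCNNNGAA), the AP-1 site (TGANTCA) and the TATA box (TATAAA), found in 7.02%, 6.75% and 12.4% of all windows, were searched as well on both strands; 1 of the 4 printed windows held an AP-1 match (Cxcl10), 1 a TATA box match (Cxcl9) and none a GAS match. Of the other 4 windows, those of Pf4 and Cxcl12 held no match to any of the 5 motifs, that of Cxcl13 held a TATA box match, and that of Cxcl14 held a GAS match and a response element core that do not share bases.

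The libraries held between 5049936 and 29792301 counts. The 7 genes that mark the gate were detected in every library, and Lyve1, the gene of the sort marker, averaged 2532 ± 423 CPM in aortic LYVE1+ and 1023 ± 260 CPM in aortic LYVE1- cells, and 1928 ± 377 CPM in adipose LYVE1+ and 470.2 ± 209 CPM in adipose LYVE1- cells (SD, n = 3 each). CPM are counts relative to the library total, scaled by the TMM method. Library 1 of each adipose sort stood apart, with 8.85% and 12.1% of counts on mitochondrial genes in LYVE1+ and LYVE1- cells against 1.79% to 3.20% in the other libraries, and with the highest sums of erythroid, T and NK cell and monocyte markers of its sort. Library identifiers begin with RMM or RHH. All adipose libraries and aortic LYVE1+ libraries 1 and 2 were RMM, while aortic LYVE1+ library 3 and all aortic LYVE1- libraries were RHH. The prefix therefore overlaps with every comparison that uses aortic LYVE1- cells, the average over tissues and the difference of sort effects included. Some results on which these libraries bear are given with and without them.

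Per kilobase of exon, Pf4 had the highest level of the family in every group, with group means between 1797 and 2823 CPM per kb. Cxcl2 followed with 295 to 665 CPM per kb and Cxcl1 with 122 to 221 CPM per kb. Cxcl10 ranged from 24.0 to 226 and Cxcl16 from 27.4 to 169 CPM per kb over the 4 groups. Cxcl13 lay between 0.629 and 23.7, Cxcl12 between 3.52 and 13.3, Cxcl9 between 0.289 and 2.34, and Cxcl14 between 0.188 and 0.542 CPM per kb. Pf4 and Cxcl2 were the highest 2 in every group. In the aorta Cxcl10, at means of 157 CPM per kb in LYVE1+ and 226 CPM per kb in LYVE1- cells, lay beside Cxcl1, at 155 and 197 CPM per kb in these groups, while in fat it lay below Cxcl1. As a ratio of the highest to the lowest, the group means of Cxcl10 and Cxcl16 differed more than those of Cxcl1 and Cxcl2.

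**Figure D1:**
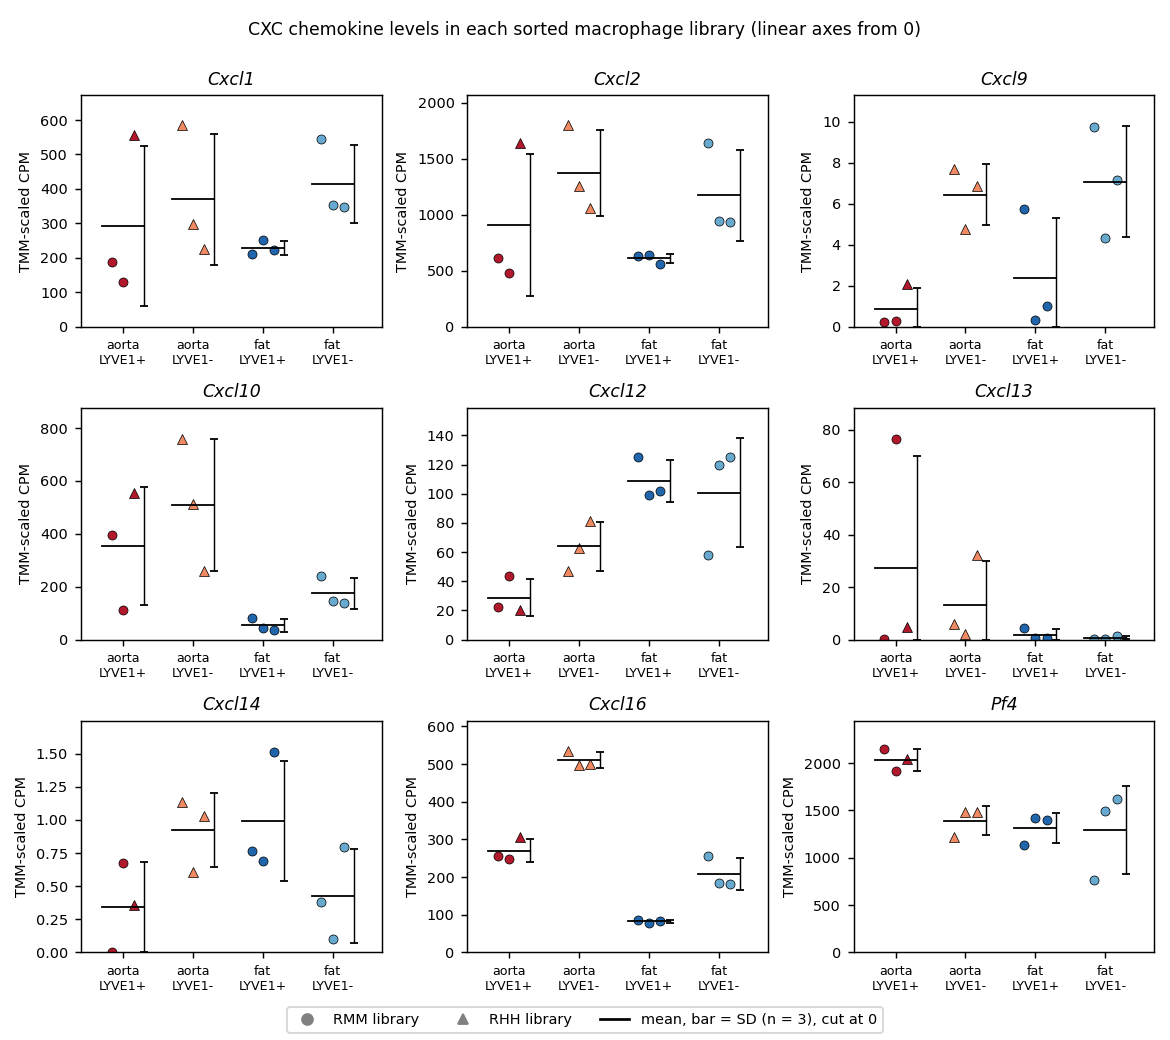
TMM-scaled CPM of the 9 CXC chemokines in each of 12 libraries, in groups of 3, with circles for RMM and triangles for RHH libraries, a line at the group mean and a bar of 1 SD cut at 0. Cxcl16 forms tight groups, with aortic LYVE1- libraries highest (497 to 536 CPM) and adipose LYVE1+ libraries lowest (78.9 to 85.4 CPM), whereas Cxcl1, Cxcl2, Cxcl10 and Cxcl13 vary widely within the aortic groups.

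In 5 of the 6 comparisons at most 1 member was called, and 3 were called between tissues in LYVE1+ cells. In the aorta, LYVE1+ against LYVE1- cells, 0 of the 9 members were called higher and 1 lower, where 0.113% of all 14216 tested genes were called higher and 0.429% lower. In fat 0 were called higher and 1 lower, against 1.82% and 2.10% of all genes, and averaged over tissues 0 were higher and 1 lower, against 2.91% and 3.43%. The difference between the sort effects of the tissues was called for 0 members, by edgeR and by DESeq2, against 0.155% of genes in either direction; 1 member (Cxcl12) had an unadjusted p below 0.05. Between tissues, 2 members were called higher and 1 lower in aortic than in adipose LYVE1+ cells, against 1.88% and 1.12% of genes, and 1 was higher and 0 lower in LYVE1- cells, against 1.66% and 0.823%. A call is a Benjamini-Hochberg adjusted p below 0.05 in edgeR's quasi-likelihood test over all tested genes. These shares of all genes also stand beside the counts of the other gene lists below.

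Overlap between libraries was counted as well, with the called members included. In the aorta the libraries of the sorts did not overlap for 4 members, 3 of them lower and 1 higher in LYVE1+ cells. Of all genes, 22.4% showed no overlap there. In fat the sorts did not overlap for 4 members, all lower in LYVE1+ cells, against 18.9% of genes. Between tissues 5 members showed no overlap in LYVE1+ cells, against 20.6% of genes, and 3 in LYVE1- cells, against 21.1%. The 5 included Cxcl14, at the limit of detection, with at most 0.676 CPM in aortic and at least 0.693 CPM in adipose LYVE1+ libraries. The median log2 fold change of the 9 members was -0.59 in the aorta and -0.86 in fat for LYVE1+ against LYVE1- cells, beside medians of -0.01 and 0.00 over all genes, and it was 0.58 in LYVE1+ and 0.23 in LYVE1- cells for aorta against fat, beside -0.02 and 0.00. The comparisons that share a group are not independent of each other.

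**Figure D2:**
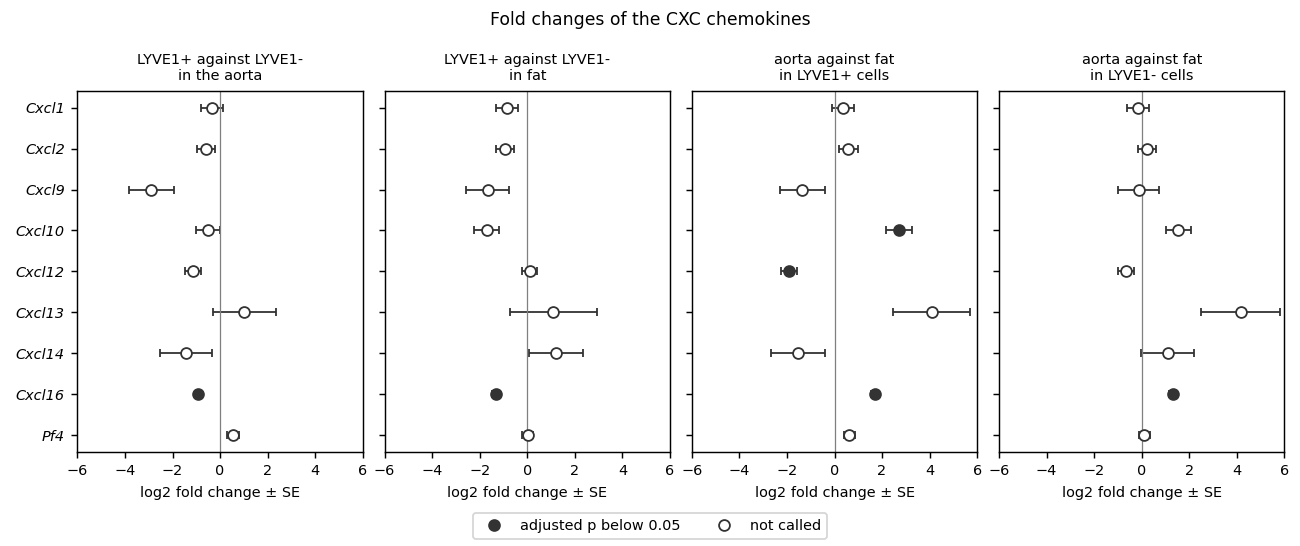
log2 fold change of each CXC chemokine with its SE in 4 comparisons, filled where edgeR's adjusted p is below 0.05. Cxcl16 is called in all 4 panels, at -0.92 and -1.33 for the sorts and at 1.71 and 1.30 for the tissues, while Cxcl10 and Cxcl12 are called in LYVE1+ cells between tissues, in opposite directions.

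Cxcl16, the membrane-anchored ligand of CXCR6 and a receptor for oxidised lipoprotein, was the member called in both sort comparisons, lower in LYVE1+ cells each time. The gene (ENSMUSG00000018920.10) lies at chr11:70453983-70459984 on the minus strand. Aortic LYVE1+ libraries had 255, 249 and 305 CPM, and aortic LYVE1- libraries 536, 497 and 501 CPM. Every LYVE1+ library lay below every LYVE1- library, and the log2 fold change was -0.92 ± 0.155 (SE; 1.89-fold lower; edgeR quasi-likelihood test, adjusted p = 0.0182 over 14216 genes). In fat, LYVE1+ libraries had 85.4, 78.9 and 83.9 CPM and LYVE1- libraries 257, 184 and 182 CPM. These groups did not overlap either, with a log2 fold change of -1.33 ± 0.157 (2.51-fold lower; edgeR adjusted p = 0.000649). Averaged over tissues the log2 difference was -1.12 ± 0.110 (edgeR adjusted p = 0.000111), and the difference between the tissues' sort effects was 0.41 ± 0.218 and not called (edgeR adjusted p = 0.908).

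Cxcl16 was also higher in the aorta than in fat in both sorts. The log2 difference between aortic and adipose cells was 1.71 ± 0.159 in LYVE1+ cells (3.26-fold; edgeR adjusted p = 0.000228) and 1.30 ± 0.156 in LYVE1- cells (2.46-fold; edgeR adjusted p = 0.00103). The groups ran from aortic LYVE1- over aortic LYVE1+ and adipose LYVE1- to adipose LYVE1+ cells, with means of 511 ± 21.4, 270.0 ± 30.8, 208 ± 42.3 and 82.7 ± 3.38 CPM. The neighbours aortic LYVE1+ and adipose LYVE1- overlapped and were not called different (edgeR adjusted p = 0.181), while both other pairs of neighbours were.

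With the library prefix as a covariate, the aortic sort difference of Cxcl16 became -0.74 (edgeR adjusted p = 0.601) and the tissue difference in LYVE1- cells 1.02 (edgeR adjusted p = 0.519), neither called. The aortic call also ended without LYVE1+ library 1 (edgeR adjusted p = 0.151) or 2 (0.0776), or LYVE1- library 1 (0.0956) or 3 (0.0660). Among RHH libraries alone, the single aortic LYVE1+ library had 305 CPM and the aortic LYVE1- libraries 497 to 536 CPM. Only aortic LYVE1+ cells held both prefixes, so a fit with this covariate rests on that 1 library. Over all tested genes it called 2 between the aortic sorts, against 77 without the covariate. Between tissues in LYVE1- cells it called 7, against 353. A call lost with the covariate in these comparisons, here and below, therefore says little about a single gene. Between tissues in LYVE1+ cells the fit with the covariate called 181 genes, against 426 without it. The adipose call and the tissue call in LYVE1+ cells held without any single library. The tissue call in LYVE1+ cells also held with the prefix as a covariate. All adipose libraries were RMM, so that covariate cannot test the adipose sort difference.

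Exons of Cxcl16 share 552 bases with Zmynd15 on the opposite strand, and the protocol does not keep strand. Zmynd15 had 10.7 to 16.2 CPM in aortic LYVE1+ and 28.1 to 49.9 CPM in aortic LYVE1- cells, and 1.65 to 7.10 CPM in adipose LYVE1+ and 10.4 to 24.8 CPM in adipose LYVE1- cells. Its levels, all below those of Cxcl16, were lower in LYVE1+ cells and higher in the aorta as well, and its part in the result was not tested. The 8 monocyte markers summed to 188 to 266 CPM in aortic LYVE1+ and 515 to 1757 CPM in aortic LYVE1- cells, and to 482 to 1189 CPM in adipose LYVE1+ and 1649.6 to 3419 CPM in adipose LYVE1- cells. These sums were lower in LYVE1+ cells too and were carried largely by Fn1, Ccr2 and Cd209a. The list did not move as one in fat, where 3 of its 8 genes had positive log2 fold changes, 1 was called higher and 1 lower; Cd209a had 223 to 307 CPM in adipose LYVE1+ and 153 to 197 CPM in adipose LYVE1- cells, and Plac8 had 21.6 to 26.2 CPM in LYVE1+ and 7.48 to 17.3 CPM in LYVE1- cells. Between tissues, the monocyte sums of LYVE1+ cells were lower in the aorta than in fat, and Cxcl16 was higher there. The part of monocytes in the sort and tissue differences of Cxcl16 was not tested. In bulk samples fewer cells of a type and less RNA per cell cannot be told apart.

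Cxcl10 and Cxcl9 are ligands of CXCR3, and both are induced by interferon gamma in macrophages. Cxcl10 (ENSMUSG00000034855.12, chr5:92346638-92348889, minus strand) was called higher in aortic than in adipose LYVE1+ cells. Aortic LYVE1+ libraries had 395, 113 and 554 CPM, and adipose LYVE1+ libraries 82.0, 42.8 and 37.1 CPM. The groups did not overlap although the aortic libraries spanned a wide range, and the log2 difference was 2.72 ± 0.544 (6.60-fold; edgeR adjusted p = 0.0192). That call ended without aortic library 1 (edgeR adjusted p = 0.0549) or 3 (0.0740), without adipose library 2 (0.0857) or 3 (0.0830), and with the prefix as a covariate (log2 difference 2.24, adjusted p = 0.0735). Without aortic library 3 both groups hold RMM libraries alone, and the log2 difference was 2.25.

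In LYVE1- cells Cxcl10 had 758, 512 and 259 CPM in aortic and 241, 145 and 138 CPM in adipose libraries, which did not overlap but were not called (log2 difference 1.55 ± 0.518, edgeR adjusted p = 0.155). The sorts of fat did not overlap for Cxcl10 either, with 37.1 to 82.0 CPM in LYVE1+ and 138 to 241 CPM in LYVE1- libraries and a log2 fold change of -1.70 ± 0.527 (edgeR adjusted p = 0.105). The same-numbered adipose libraries deviated together, and with the number as a replicate block the value was -1.74 (edgeR adjusted p = 0.0546), still not called. Cxcl10 was called lower in adipose LYVE1+ cells without adipose LYVE1+ library 1 (log2 fold change -2.12, edgeR adjusted p = 0.0432), without aortic LYVE1+ library 2 (-1.70, adjusted p = 0.0375), and in DESeq2 (-1.70, adjusted p = 0.0489). In the aorta the sorts overlapped, at -0.53 ± 0.507 (edgeR adjusted p = 0.749). Exons of Cxcl10 share 133 bases with Art3 on the opposite strand, and Art3 reached 15.6 CPM at most.

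Cxcl9 (ENSMUSG00000029417.9, chr5:92321347-92328079, minus strand) was scarce. Aortic LYVE1+ libraries had 0.251, 0.301 and 2.06 CPM, and aortic LYVE1- libraries 7.69, 4.78 and 6.86 CPM. The groups did not overlap, and the log2 fold change of -2.89 ± 0.933 was not called (edgeR adjusted p = 0.251). Adipose LYVE1+ libraries had 5.76, 0.347 and 1.01 CPM, and adipose LYVE1- libraries 9.72, 4.32 and 7.17 CPM. Here the groups overlapped through LYVE1+ library 1, which stood apart in its marker sums, and without it Cxcl9 was called lower (log2 fold change -3.38, edgeR adjusted p = 0.0378). Averaged over tissues the value was -2.28 ± 0.649 (edgeR adjusted p = 0.0561), which passed the threshold without that library (-3.14, adjusted p = 0.00399), without aortic LYVE1+ library 3 (-3.09, adjusted p = 0.0196), and with the replicate block (-2.82, adjusted p = 0.00917), where Cxcl10 passed as well (-1.22, adjusted p = 0.0454). Between tissues Cxcl9 overlapped in both sorts.

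Of the 16 interferon gamma pathway genes listed, 15 were tested. In LYVE1+ against LYVE1- cells 0 were called higher and 1 lower in the aorta, with a median log2 fold change of -0.55, and 0 higher and 1 lower in fat, with a median of -0.30. The gene called in both was Ciita, the regulator of MHC class II transcription, which had 16.6, 13.1 and 18.3 CPM in aortic LYVE1+ and 127, 123 and 114 CPM in aortic LYVE1- cells (log2 fold change -2.92 ± 0.588, edgeR adjusted p = 0.0490). In fat it had 95.8, 10.6 and 17.3 CPM in LYVE1+ and 228, 213 and 217 CPM in LYVE1- cells (-2.45 ± 0.578, edgeR adjusted p = 0.0320). Its LYVE1+ level in fat was highest in library 1, as that of Cxcl9 was. The aortic call of Ciita held without a single library in 4 of 12 cases and the adipose call in 6 of 12, and with the prefix as a covariate the aortic value was -2.73 and not called (edgeR adjusted p = 0.726). Averaged over tissues 2 were lower, Ciita and Cd274 (the ligand PD-L1, -1.29 ± 0.213, edgeR adjusted p = 0.00325). Between tissues 0 passed in LYVE1+ cells by edgeR, where 6 had an unadjusted p below 0.05 and DESeq2 called 4, and in LYVE1- cells Cd274 was higher in the aorta (1.27 ± 0.295, edgeR adjusted p = 0.0423) and the transcription factor Irf1 lower (-0.83 ± 0.144, edgeR adjusted p = 0.0107). With the prefix as a covariate neither was called, at 1.30 for Cd274 and -1.03 for Irf1, and without a single library the call of Cd274 held in 5 of 12 fits and that of Irf1 in 11.

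Cxcl1 and Cxcl2, the neutrophil attractants, lie side by side on chromosome 5 (ENSMUSG00000029380.11 at chr5:90891241-90893115 and ENSMUSG00000058427.9 at chr5:90903871-90905938, both plus strand). Neither was called in any comparison. Cxcl1 had 188, 129 and 558 CPM in aortic LYVE1+ and 584, 298 and 227 CPM in aortic LYVE1- libraries, which overlapped (log2 fold change -0.34 ± 0.460, edgeR adjusted p = 0.831). In fat it had 211, 250.4 and 222 CPM in LYVE1+ and 545, 353 and 347 CPM in LYVE1- libraries, without overlap (-0.86 ± 0.464, edgeR adjusted p = 0.416).

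Cxcl2 had 616, 479 and 1641 CPM in aortic LYVE1+ and 1804, 1258 and 1064 CPM in aortic LYVE1- libraries (log2 fold change -0.59 ± 0.390, edgeR adjusted p = 0.609). In fat it had 628, 639.9 and 564 CPM in LYVE1+ and 1643, 944 and 936 CPM in LYVE1- libraries, without overlap (-0.94 ± 0.392, edgeR adjusted p = 0.253). For both genes, and for Cxcl10, the highest aortic LYVE1+ library was number 3, the RHH library of that group. Without it both fell in LYVE1+ cells averaged over tissues, Cxcl1 by 1.04 (edgeR adjusted p = 0.0318) and Cxcl2 by 1.13 on the log2 scale (edgeR adjusted p = 0.00745), against -0.60 ± 0.327 (adjusted p = 0.320) and -0.77 ± 0.277 (adjusted p = 0.127) with it. With the prefix as a covariate the aortic values turned to 0.59 for Cxcl1 and 0.26 for Cxcl2, neither called, and between tissues in LYVE1+ cells to -0.53 and -0.16, against 0.35 and 0.58 without the covariate.

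The NF-kB list held 17 genes of the pathway, its targets and its mRNA decay factors, all tested. In LYVE1+ against LYVE1- cells all 17 had negative log2 fold changes in both tissues. Their medians were -0.42 in the aorta and -0.57 in fat, beside -0.01 and 0.00 over all genes, and genes measured in the same libraries are not independent of each other. In the aorta 0 were called by edgeR, where 6 had an unadjusted p below 0.05 and DESeq2 called 1. In fat 2 were called, both lower, where 2.10% of all genes were called lower. Those were Ptgs2, the inducible cyclooxygenase, at 19.8, 7.37 and 8.16 CPM in adipose LYVE1+ and 112, 57.7 and 42.8 CPM in adipose LYVE1- cells (-2.65 ± 0.507, edgeR adjusted p = 0.0107), and the CC chemokine Ccl4, at 176, 158 and 161 CPM in adipose LYVE1+ and 577, 545 and 605 CPM in adipose LYVE1- cells (-1.80 ± 0.431, edgeR adjusted p = 0.0344). Without a single library the call of Ptgs2 held in 10 of 12 fits and that of Ccl4 in 5 of 12. Averaged over tissues 6 were lower, where 3.43% of all genes were called lower. The smallest adjusted p were those of Ptgs2 (-2.43), Tnfaip3, an inhibitor of NF-kB signalling (-0.85), and Zc3h12a, an RNase that degrades cytokine mRNAs (-0.40). The calls of Ptgs2 and Tnfaip3 held in all 12 fits that left out a single library, but Ccl4 and Il1b were called in 4 of them, Zc3h12a in 3 and Rel in 2.

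Between tissues 4 of the 17 NF-kB genes were called higher in aortic than in adipose LYVE1+ cells and 0 lower, against 1.88% and 1.12% of all genes. The median log2 difference was 0.19, beside -0.02 over all genes. The smallest adjusted p belonged to Ccl3 (2.70 ± 0.358, edgeR adjusted p = 0.00220), Ccl4 (3.50 ± 0.461, edgeR adjusted p = 0.00220) and Tnf (2.58 ± 0.522, edgeR adjusted p = 0.0209). Without a single library Ccl3 and Ccl4 were called in all 12 fits, Tnf in 9 and the remaining one, Ptgs2, in 3. In LYVE1- cells 2 were higher and 0 lower, against 1.66% and 0.823% of all genes, with a median of 0.47 beside 0.00 over all genes. They were Ccl3 (2.36 ± 0.352) and Ccl4 (2.15 ± 0.435), neither called with the prefix as a covariate, at 1.25 and 0.71. The call of Ccl4 held in 8 of 12 fits without a single library. Tnf, like Cxcl10, was not called in LYVE1+ cells with that covariate (1.81, edgeR adjusted p = 0.0749).

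Immediate early and heat shock genes, which rise when tissue is dissociated, were listed beside these inducible chemokines. Of 16 tested, 1 was lower in aortic and 2 in adipose LYVE1+ against LYVE1- cells and 0 higher in either. Between tissues 2 were higher and 2 lower in the aorta in each sort. Hspa1b and Hspa1a, nearly identical copies whose reads may be split between them, were higher in aortic than in adipose LYVE1+ cells by 4.31 ± 0.250 and 2.39 ± 0.449 on the log2 scale, and Egr2 was lower by 2.39 ± 0.161 there (log2 difference -2.39, edgeR adjusted p = 1.21e-05). Their part in the levels of Cxcl1, Cxcl2 and Cxcl10 was not tested. The 10 neutrophil markers summed to 47.8 to 54.6 CPM in aortic LYVE1+, 62.2 to 79.9 CPM in aortic LYVE1-, 46.7 to 63.2 CPM in adipose LYVE1+ and 33.1 to 46.8 CPM in adipose LYVE1- libraries, most of it Csf3r. Ly6g was at 0 in every library, and S100a8 and S100a9 reached 1.78 CPM at most. Retnlg, another neutrophil gene, was at 0 to 0.469 CPM in aortic LYVE1+ and 0.134 to 1.71 CPM in aortic LYVE1- cells, against 2.52 to 19.2 CPM in adipose LYVE1+ and 2.40 to 9.84 CPM in adipose LYVE1- cells. Of the 3 neutrophil markers tested, 1 was called lower in the aorta than in fat in LYVE1+ cells and 1 higher in LYVE1- cells, and the part of neutrophils in the levels of Cxcl1, Cxcl2 and Cxcl10 was not tested.

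**Figure D3:**
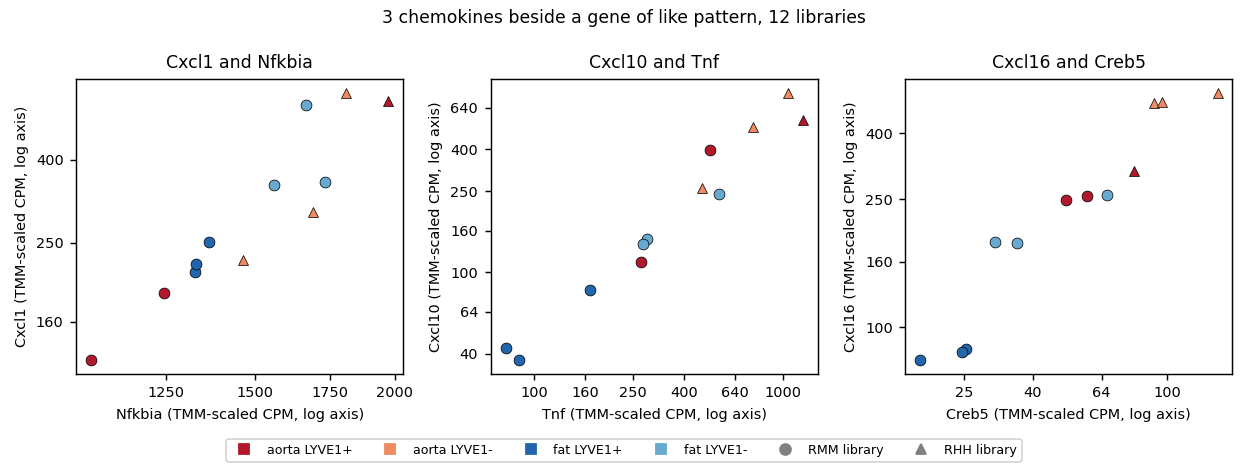
Levels of Cxcl1 beside Nfkbia, Cxcl10 beside Tnf and Cxcl16 beside Creb5 in 12 libraries, in TMM-scaled CPM on log axes, coloured by group and shaped by prefix. Aortic LYVE1+ libraries spread widely along the Cxcl1 axis, from 129 to 558 CPM of Cxcl1, while the groups of Cxcl16 stay apart from each other except aortic LYVE1+ and adipose LYVE1-.

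As a description, the genes with the most similar pattern over the 12 libraries were sought for each member among the 6969 genes whose mean log2 CPM reached 4. The libraries share their groups and their prefixes, and no p is given. Cxcl1 was nearest to Nfkbia (Pearson r = 0.93, Spearman rho = 0.95), the inhibitor of NF-kB that NF-kB itself induces, then to the cytokines Il10 (r = 0.92) and Il6 (r = 0.92). Cxcl2 was nearest to Cxcl1 (r = 0.91), Nfkbia (r = 0.91) and Vim (r = 0.90). Cxcl10 was nearest to Tnf (r = 0.98, rho = 0.97), Ccl4 (r = 0.96) and Hat1 (r = 0.95), and Cxcl9 to H2-DMb2 (r = 0.96), Tnip3 (r = 0.94) and Il1b (r = 0.93). Cxcl16 was nearest to Id2 (r = 0.96), Blnk (r = 0.96) and Creb5 (r = 0.96, rho = 0.99). Cxcl1 and Cxcl10 shared no gene among their nearest 3.

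Cxcl12, the ligand of CXCR4 and of the atypical receptor ACKR3, holds progenitors in bone marrow and is made mainly by stromal cells. It was the member called lower in the aorta than in fat, in LYVE1+ cells. The gene (ENSMUSG00000061353.10) lies at chr6:117168535-117181367 on the plus strand. Aortic LYVE1+ libraries had 22.5, 43.3 and 20.6 CPM, and adipose LYVE1+ libraries 125, 99.3 and 102 CPM. The groups were far apart, with a log2 difference of -1.92 ± 0.332 (3.78-fold lower; edgeR adjusted p = 0.00831), and the call held without any single library and with the prefix as a covariate (-1.73, edgeR adjusted p = 0.0460).

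In LYVE1- cells Cxcl12 had 47.3, 62.9 and 81.3 CPM in aortic and 57.7, 119.5 and 125 CPM in adipose libraries, which overlapped (-0.66 ± 0.320, edgeR adjusted p = 0.355). In the aorta all LYVE1+ libraries lay below all LYVE1- libraries (-1.15 ± 0.325, edgeR adjusted p = 0.174), whereas in fat the sorts overlapped (0.11 ± 0.320, edgeR adjusted p = 0.914). The difference between these sort effects was -1.26 ± 0.455 and not called (edgeR adjusted p = 0.674). The aortic sort difference passed the threshold in DESeq2 (-1.16, adjusted p = 0.0215), without the filter on low counts (-1.15, adjusted p = 0.00344) and without both adipose libraries numbered 1 (-1.15, adjusted p = 0.0267).

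The 10 fibroblast markers were detected in every library. They summed to 873 to 2654 CPM in aortic LYVE1+ and 431 to 703 CPM in adipose LYVE1+ libraries. Adipocyte and mesothelial marker sums ran the other way. These were at most 15.1 and 0.65 CPM in aortic and at least 54.8 and 8.63 CPM in adipose LYVE1+ libraries. Smooth muscle and lymphatic endothelial sums were higher in aortic LYVE1+ libraries, and endothelial sums overlapped. Adipose library 1 had the highest adipocyte sum in each sort, with the highest Cxcl12 in LYVE1+ but the lowest in LYVE1- cells. The part of any of these cells in the level of Cxcl12 was not tested. Within aortic LYVE1+ libraries, number 2 had both the highest fibroblast sum, 2654 CPM, and the highest Cxcl12, and within adipose LYVE1+ libraries number 1 had both, at a sum of 703 CPM. In LYVE1- cells they did not coincide. Aortic library 2 had the highest sum, 2329 CPM, but library 3 the highest Cxcl12, and adipose library 1 had the highest sum, 1059 CPM, but the lowest Cxcl12, 57.7 CPM. Nearest to Cxcl12 over the 12 libraries were Clec2i (r = 0.94), Ncoa7 (r = 0.92) and Gcc1 (r = 0.91), given as a description.

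Cxcl13, which draws B cells through CXCR5, varied widely between the libraries of a group. The gene (ENSMUSG00000023078.6) lies at chr5:95956951-95961068 on the plus strand. Aortic LYVE1+ libraries had 0.351, 76.4 and 4.84 CPM, and aortic LYVE1- libraries 5.82, 2.03 and 32.3 CPM. Adipose LYVE1+ libraries had 4.61, 0.433 and 0.504 CPM, and adipose LYVE1- libraries 0.384, 0.294 and 1.49 CPM. Single libraries of aortic LYVE1+ and LYVE1- cells stood far above the others of their group, and no comparison was called. The tissue difference was 4.09 ± 1.61 in LYVE1+ (edgeR adjusted p = 0.234) and 4.16 ± 1.67 in LYVE1- cells (edgeR adjusted p = 0.245), whose libraries did not overlap. Without the filter on low counts both tissue differences passed (edgeR adjusted p = 0.00475 in LYVE1+ and 0.00766 in LYVE1- cells). Aortic LYVE1+ library 2, the highest, also had the highest sums of fibroblast (2654 CPM) and lymphatic endothelial markers (59.9 CPM) of all libraries. Aortic LYVE1- library 3, the highest of its group, had the lowest lymphatic endothelial sum of that group (9.61 CPM) and a fibroblast sum of 1893 CPM, below the 2329 CPM of library 2. The part of these cells in the level of Cxcl13 was not tested. Without aortic LYVE1+ library 2 the aortic sort value turned to -2.38 and the tissue difference in LYVE1+ cells became 0.60. The genes nearest to Cxcl13 were Ltbp4 (r = 0.84, rho = 0.78), Fstl1 (r = 0.83, rho = 0.70) and Mplkip (r = 0.82, rho = 0.76).

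Cxcl14, a chemokine of epithelium and stroma without an agreed receptor, was at the limit of detection. The gene (ENSMUSG00000021508.10, chr13:56288643-56296551, minus strand) had 105 counts over all 12 libraries and none in aortic LYVE1+ library 1, where 3 counts would be 0.150 CPM. Levels were 0, 0.676 and 0.356 CPM in aortic LYVE1+ and 1.14, 0.610 and 1.03 CPM in aortic LYVE1- libraries. Adipose LYVE1+ libraries had 0.768, 0.693 and 1.51 CPM, and adipose LYVE1- libraries 0.384, 0.0981 and 0.796 CPM. No difference between groups was detectable at this depth, with adjusted p between 0.580 and 0.961 in the edgeR comparisons of sorts and tissues. The genes nearest to it were Calcrl (r = 0.85, rho = 0.76), Dlg1 (r = 0.83, rho = 0.56) and Trim33 (r = 0.82, rho = 0.73).

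Pf4, or CXCL4, a chemokine that binds heparin and is stored in platelet granules, was abundant in every library. The gene (ENSMUSG00000029373.7) lies at chr5:90772435-90773383 on the plus strand. Aortic LYVE1+ libraries had 2148, 1913 and 2045 CPM, and aortic LYVE1- libraries 1219, 1481 and 1479.8 CPM. All LYVE1+ libraries lay above all LYVE1- libraries, and the log2 fold change of 0.55 ± 0.236 was not called (edgeR adjusted p = 0.400). Adipose LYVE1+ libraries had 1130.3, 1424 and 1395 CPM and adipose LYVE1- libraries 764, 1497 and 1626 CPM, which overlapped (0.02 ± 0.236, edgeR adjusted p = 0.979). Between tissues the LYVE1+ libraries did not overlap (0.63 ± 0.237, edgeR adjusted p = 0.209) and the LYVE1- libraries did (0.10 ± 0.236, edgeR adjusted p = 0.893).

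The lowest Pf4 level of each adipose sort was in library 1. Without both of these libraries the aortic sort difference of Pf4 was called (0.55, edgeR adjusted p = 0.00854), as was the tissue difference in LYVE1+ cells (0.53, edgeR adjusted p = 0.0147), which also passed without adipose LYVE1- library 1 alone (0.63, edgeR adjusted p = 0.0314). The 11 platelet and megakaryocyte markers summed to 9.27 to 14.3 CPM in aortic LYVE1+, 8.20 to 12.6 CPM in aortic LYVE1-, 1.16 to 5.94 CPM in adipose LYVE1+ and 4.25 to 9.71 CPM in adipose LYVE1- libraries. The platelet collagen receptor Gp6 was at 0 in every group but adipose LYVE1-, where it had 9 counts. The part of platelets in the level of Pf4 was not tested. The genes nearest to Pf4 were Nsmce1 (r = 0.98, rho = 0.98), Ctsf (r = 0.94) and Dhrs1 (r = 0.94).

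In order of group means, no neighbouring groups were called different by edgeR for any member but Cxcl16. Cxcl10 ran from aortic LYVE1- over aortic LYVE1+ and adipose LYVE1- to adipose LYVE1+ cells, with means of 509.7 ± 249, 354 ± 223, 175 ± 57.7 and 54.0 ± 24.4 CPM, and its last pair of neighbours did not overlap. Cxcl12 ran from adipose LYVE1+ over adipose LYVE1- and aortic LYVE1- to aortic LYVE1+ cells, with means of 109 ± 14.4, 101 ± 37.3, 63.8 ± 17.0 and 28.8 ± 12.6 CPM, and again the last pair did not overlap. Pf4 ran from aortic LYVE1+ over aortic LYVE1- and adipose LYVE1+ to adipose LYVE1- cells, with means of 2035 ± 118, 1393 ± 150.5, 1317 ± 162 and 1295 ± 465 CPM, and the first pair did not overlap. For Cxcl1, Cxcl2, Cxcl9, Cxcl13 and Cxcl14 all neighbours overlapped; adipose LYVE1+ cells had the lowest means of Cxcl1 (228 ± 20.2 CPM) and Cxcl2 (611 ± 40.6 CPM), and aortic LYVE1+ cells those of Cxcl9 (0.872 ± 1.03 CPM) and Cxcl14 (0.344 ± 0.338 CPM; SD, n = 3 for all).

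Of 6 other CXC ligands in the table, Cxcl3 and Ppbp were tested and neither was called in any comparison by edgeR or DESeq2. Ppbp had an unadjusted p below 0.05 in edgeR in 2 comparisons, LYVE1+ against LYVE1- in fat (-1.58 ± 0.557) and aorta against fat in LYVE1+ cells (1.57 ± 0.553). Cxcl3, a neutrophil attractant, had 0.201, 0.601 and 7.33 CPM in aortic LYVE1+ and 29.0, 2.20 and 4.07 CPM in aortic LYVE1- libraries, and at most 4.61 CPM in fat. Ppbp, another platelet chemokine, lay between 0.706 and 6.72 CPM. Cxcl5 and Cxcl15 had at most 0.498 CPM in any library, Cxcl11, the third ligand of CXCR3, reached 3.08 CPM in aortic LYVE1- library 1, and Cxcl17 reached 1.34 CPM in adipose LYVE1+ library 1.

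Among the receptors, 6 of 8 were tested, and Cxcr3, the receptor of Cxcl9, Cxcl10 and Cxcl11, was called. Adipose LYVE1+ libraries had 22.1, 49.1 and 55.3 CPM of Cxcr3, and adipose LYVE1- libraries 6.27, 9.52 and 8.16 CPM. Every LYVE1+ library lay above every LYVE1- library, with a log2 fold change of 2.40 ± 0.343 (5.29-fold higher; edgeR adjusted p = 0.00188). In the aorta Cxcr3 had 28.2, 40.1 and 31.3 CPM in LYVE1+ and 9.56, 14.9 and 18.4 CPM in LYVE1- libraries, without overlap, and was not called (1.21 ± 0.322, edgeR adjusted p = 0.150). Averaged over tissues it was higher by 1.81 ± 0.235 (edgeR adjusted p = 0.000764), and both calls held without any single library. The averaged call also held with the prefix as a covariate, which cannot test the adipose sort difference. The sort effects of the tissues were not called different (-1.19 ± 0.460, edgeR adjusted p = 0.733).

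The 10 T and NK cell markers, whose cells carry CXCR3, summed to 9.02 to 230 CPM in adipose LYVE1+ and 2.97 to 97.2 CPM in adipose LYVE1- libraries. The highest sums were in library 1 of each sort, and that library had the lowest Cxcr3 of its sort in both. In libraries 2 and 3 the sums were 11.1 and 9.02 CPM in LYVE1+ and 2.97 and 8.80 CPM in LYVE1- cells. All 10 markers had positive log2 fold changes for LYVE1+ against LYVE1- cells in fat (median 1.11), as Cxcr3 had, and 0 were called. In the aorta 5 were positive and 5 negative. The part of T and NK cells in the level of Cxcr3 was not tested.

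**Figure D4:**
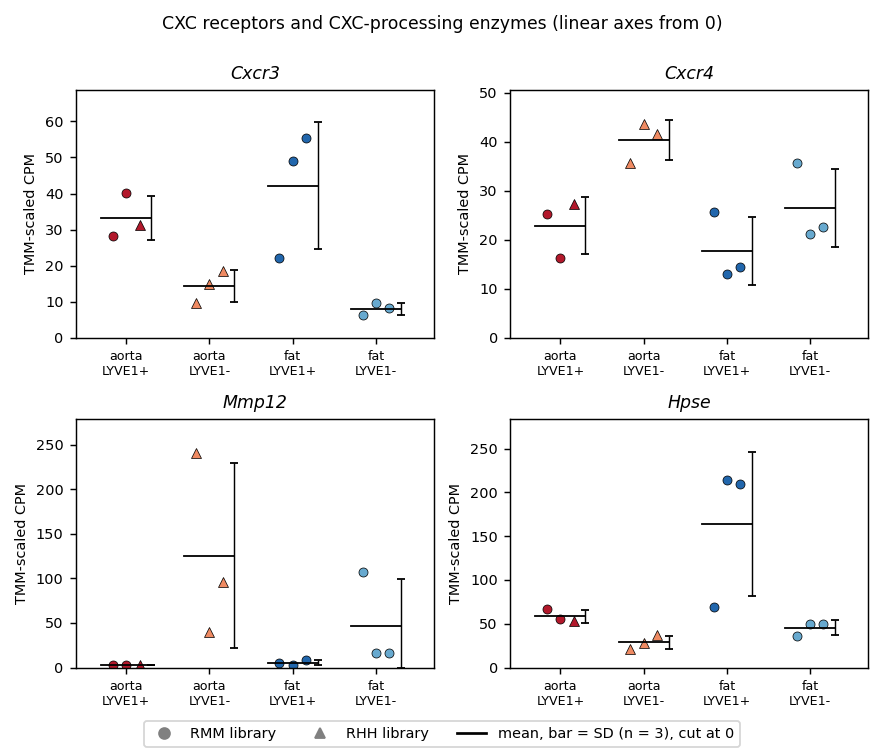
TMM-scaled CPM of the receptors Cxcr3 and Cxcr4 and of Mmp12 and Hpse in each of 12 libraries, with the group mean and a bar of 1 SD cut at 0. Cxcr3 is higher in the LYVE1+ libraries of both tissues, at 22.1 to 55.3 CPM against 6.27 to 18.4 CPM, and Mmp12 is lower, at 2.56 to 8.97 CPM against 16.3 to 241 CPM.

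Cxcr4, the receptor of Cxcl12, had 25.2, 16.2 and 27.3 CPM in aortic LYVE1+ and 35.8, 43.6 and 41.6 CPM in aortic LYVE1- libraries (-0.82 ± 0.282, edgeR adjusted p = 0.278). Averaged over tissues it was at -0.71 ± 0.203 (edgeR adjusted p = 0.0582), not called, and passed the threshold in 5 of 19 alternatives. In the aorta 0 receptors were called by edgeR, where 2 had an unadjusted p below 0.05 and DESeq2 called 1. Ackr3, the other Cxcl12 receptor, Cxcr5, the receptor of Cxcl13, and Cxcr6, the receptor of Cxcl16, were tested and not called in any comparison. Cxcr6 had at most 2.37 CPM in aortic libraries, and its highest level, 11.7 CPM, was in adipose LYVE1+ library 1. Cxcr2, the receptor of Cxcl1 and Cxcl2, had 13 counts in aortic LYVE1+, 135 in aortic LYVE1- and 0 in both adipose groups, and Cxcr1 had none in any library. The decoy receptor Ackr1 stayed at or under 1.15 CPM.

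Genes that cut, shed or anchor CXC chemokines numbered 12, of which 10 were tested. In LYVE1+ against LYVE1- cells 0 were called higher and 1 lower in the aorta (median log2 fold change -0.45), 1 was higher and 0 lower in fat (median -0.45), and 1 was higher and 2 lower averaged over tissues. Mmp12, the macrophage elastase, which cleaves several CXC chemokines, had 3.06, 3.01 and 2.56 CPM in aortic LYVE1+ and 241, 40.2 and 95.6 CPM in aortic LYVE1- libraries (-5.44 ± 0.877, edgeR adjusted p = 0.0137), a call that was lost with the prefix as a covariate (-5.61, edgeR adjusted p = 0.529) and held in 8 of 12 fits without a single library; the value lay between -5.86 and -4.55 in all 20 alternatives. Averaged over tissues it was lower by 4.26 ± 0.596 (log2 fold change -4.26, edgeR adjusted p = 0.00118), as was Sdc1, the heparan sulfate carrier syndecan-1 (-2.45 ± 0.508, edgeR adjusted p = 0.0127). Both averaged calls held in all 12 fits without a single library.

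Hpse, the heparanase that cuts heparan sulfate, was higher in LYVE1+ cells of fat, at 68.7, 214 and 209 CPM in LYVE1+ and 35.6, 50.1 and 50.3 CPM in LYVE1- libraries (1.86 ± 0.348, edgeR adjusted p = 0.00944), and averaged over tissues (1.44 ± 0.243, edgeR adjusted p = 0.00397). The adipose call held in 10 of 12 fits without a single library and the averaged call in all 12. Between tissues 0 genes of this list were higher and 2 lower in aortic than in adipose LYVE1+ cells, with a median of -0.33. They were Hpse (-1.48 ± 0.342, edgeR adjusted p = 0.0369) and Dpp4, a peptidase that inactivates CXCL10 and CXCL12 (-3.96 ± 0.816, edgeR adjusted p = 0.0226), at 0.552, 0.526 and 2.28 CPM in aortic and 37.2, 9.01 and 6.55 CPM in adipose LYVE1+ libraries. These calls held in 10 of 20 alternatives for Hpse and in 17 of 20 for Dpp4. In LYVE1- cells 0 passed by edgeR or DESeq2, 0 had an unadjusted p below 0.05, and the median was 0.00. Adam10 and Adam17, the proteases that shed CXCL16, were called in no comparison and had group means of 189 to 231 and 139 to 193 CPM.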

How the data were processed

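Gene counts of 12 libraries, made by the Smart-seq2 protocol from sorted macrophages, were used as the authors deposited them, with no normalization. Per the submitters' processing notes, the tools were featureCounts 1.5.0, STAR 2.5.2b and edgeR 3.14.0, with GRCm38 as the build. Strand setting, annotation release and handling of multiply mapped reads are not given in the sources used here. The deposited log2 CPM table was not used. Symbols came from GENCODE M21, which matched 46005 of 46517 identifiers.

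The test was the quasi-likelihood F test of edgeR 4.0.16 (R 4.3.3), with TMM factors and the genes kept by filterByExpr. All 12 libraries entered 1 model with a mean per group and 8 residual degrees of freedom, and p-values were adjusted by Benjamini-Hochberg over 14216 genes. SEs are the log2 fold change divided by the square root of F. The procedure was tested on simulated data. Marker sums are CPM on the plain library size. Promoters came from RefSeq (GRCm38.p6). Counts in a library limit precision: 3 counts, used as the floor, equal 0.102 to 0.574 CPM, which covers counting error only.

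All 9 members are named in every comparison, with every called gene of the receptor, ligand and processing lists and up to 3 called genes with the smallest adjusted p of each induction list, and for a list with no call in any comparison its 2 most abundant genes. Other receptor, ligand, protease and marker genes were named after their values were seen. The members and lists were chosen with earlier results of these data known. Alternatives were DESeq2 1.42.0 as test or for size factors, other count filters, fits of only the compared groups, a replicate block, the library prefix, and leaving libraries out. Same-numbered adipose libraries deviated together (r = 0.663, 0.459 and 0.403), and same-numbered aortic libraries did not. Libraries of unlike number were not compared. Libraries numbered 1 of aortic and adipose LYVE1- cells, from different tissues, also correlated (r = 0.381), so these values do not show that the numbers pair the libraries.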

Additional observations from a re-analysis of the deposited data

How the results depend on the processing

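The calls of Cxcl16 in fat, averaged over tissues and between tissues in LYVE1+ cells, and of Cxcl12 between tissues in LYVE1+ cells, held in all alternatives run, and that of Cxcl16 between tissues in LYVE1- cells held in all but the prefix fit. Of the 54 member results, 21 turned sign in at least 1 alternative and none of the called ones did. In the aorta, LYVE1+ against LYVE1- cells, 1 member was called, against 3 in DESeq2, 3 without the filter on low counts, 4 without both adipose libraries numbered 1, 0 with the prefix as a covariate and 0 to 1 without a single library. In fat 1 was called, against 2 in DESeq2, 2 without the filter and 1 to 3 without a single library (3 without adipose LYVE1+ library 1). Averaged over tissues 1 was called, against 2 in DESeq2, 4 without the filter, 3 without both adipose libraries numbered 1 and 1 to 4 without a single library (4 without aortic LYVE1+ library 3, 3 without adipose LYVE1+ library 1). Between tissues in LYVE1- cells 1 was called, against 3 without the filter and 0 with the prefix. Between tissues in LYVE1+ cells 3 were called, against 2 with the prefix, 4 without the filter, 4 without both adipose libraries numbered 1 and 2 to 4 without a single library; Cxcl10 lost its call in 5 of 20 alternatives, Pf4 gained one in 2 and Cxcl13 in 1. The fit of only the 2 groups compared was not run for the average and the difference of sort effects, which need all 4 groups. The cause of these changes was not tested.

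Whether the numbers pair the libraries is not known. With the replicate block 3 members were called averaged over tissues, Cxcl16, Cxcl10 and Cxcl9, against 1 without it, and the block changed no other count of member calls. Same-numbered aortic libraries did not deviate together (r = -0.0331, -0.259 and -0.428), and Cxcl16 in the aorta was -0.93 with the block (edgeR adjusted p = 0.00906). With the block Cxcl13 turned to -0.22 averaged over tissues and to -1.27 in the aorta.

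None of the other values that turned sign was called. With the prefix, aortic sort values became 0.59 for Cxcl1, 0.26 for Cxcl2, 0.12 for Cxcl10 and -1.46 for Cxcl13, the average became -0.18 for Cxcl13, the difference of sort effects 0.026 for Cxcl9, tissue differences in LYVE1+ cells -0.53 for Cxcl1 and -0.16 for Cxcl2, and those in LYVE1- cells -1.36 for Cxcl2 and 0.0090 for Cxcl12. Without both adipose libraries numbered 1, adipose sort values became -0.28 for Cxcl12, -0.92 for Cxcl13 and -0.15 for Pf4, differences of sort effects 1.95 for Cxcl13 and 0.19 for Cxcl9, the tissue difference in LYVE1+ cells 0.35 for Cxcl9, and those in LYVE1- cells 0.077 for Cxcl1, 0.16 for Cxcl9 and -0.17 for Pf4.

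Leaving out single libraries, aortic sort values ranged from -1.22 to 0.15 for Cxcl1 and from -2.38 to 2.81 for Cxcl13. Adipose sort values ranged from -0.17 to 0.29 for Cxcl12, from -0.65 to 2.21 for Cxcl13 and from -0.25 to 0.22 for Pf4. Averages ranged from -0.59 to 1.97 for Cxcl13 and from -0.59 to 0.31 for Cxcl14. Differences of sort effects ranged from -0.36 to 1.01 for Cxcl1, -0.38 to 0.66 for Cxcl2, -2.84 to 0.49 for Cxcl9 and -3.57 to 1.68 for Cxcl13. Tissue differences in LYVE1+ cells ranged from -0.52 to 0.71 for Cxcl1, -0.15 to 0.89 for Cxcl2 and -2.97 to 0.35 for Cxcl9, and in LYVE1- cells from -0.66 to 0.091 for Cxcl1, -0.013 to 0.55 for Cxcl2, -0.38 to 0.16 for Cxcl9 and -0.17 to 0.30 for Pf4. Cxcl14 and Cxcl9, with 105 and 643 counts over all libraries, are limited by depth.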
